A study of Rattus norvegicus with 9 samples.

Results

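The FK506-binding proteins and calcineurin pathway readouts described here are 9 genes, Fkbp1a, Fkbp1b, Fkbp3, Fkbp4, Fkbp5, Fkbp8, Fkbp15, Rcan1 and Nfatc4. They were chosen by name, as genes of FK506-binding proteins or readouts of the calcineurin pathway. Every probe set annotated to one of these symbols alone was taken. This gave 9 of 10411 genes with such a probe set and 12 of the array's 15866 probe sets other than controls. Expression was measured in pooled lumbar (L4 to L6) dorsal root ganglia (DRG), which hold the cell bodies of sensory neurons, of Sprague-Dawley rats. The 3 groups were rats made diabetic with streptozotocin (STZ, a toxin of pancreatic beta cells) and given FK1706, an immunophilin ligand, STZ rats given vehicle, and normal rats without STZ given vehicle. Sampling followed 1, 2 or 3 weeks of treatment by a day, and each of the 9 arrays holds equal amounts of RNA from 5 rats, so each group has 1 pool per week. No normal rats received FK1706, and the dose, age and sex are not given in the sources used here.

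Many FK506-binding proteins (FKBPs) are peptidyl-prolyl isomerases, and some of them are the intracellular receptors of FK506-type immunophilin ligands. When FK506 occupies FKBP12, the pair blocks calcineurin, the calcium-activated phosphatase that dephosphorylates NFAT transcription factors and lets them enter the nucleus. Whether FK1706 does the same was not measured here. Larger FKBPs act as HSP90 co-chaperones of steroid receptors, and immunophilin ligands are studied in peripheral nerve because some of them promote neurite growth.

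The arrays were put on one scale by quantile normalization of log2(signal + 18.7), since the trimmed mean deposited signal ran from 360 to 532 signal units over the 9 arrays. Values below are normalized log2 signals, given for weeks 1, 2 and 3 in that order, and differences are on that log2 scale. Without this step, the median over all probe sets tested of the log2 difference on the deposited scale was -0.07 for STZ FK1706 against STZ vehicle, -0.10 for STZ vehicle against normal and -0.17 for STZ FK1706 against normal, and the differences below are relative to those shifts. Arrays correlated with r from 0.969 to 0.981 across probe sets. Of 12 sensory neuron markers 11 were on the array and all of those lay above the low-signal filter at the 40th percentile, and their summed normalized signal was 73406 to 75164 in STZ FK1706, 73671 to 74777 in STZ vehicle and 73160 to 74769 in normal pools. In pooled tissue, fewer cells of a type and less RNA per cell cannot be told apart. The number of arrays limits the precision. With group and week as factors, the residuals measure how unevenly the group differences repeat over the weeks, not the spread between rats. For p-values and intervals, the limma tests below pull each probe set's spread toward that of all probe sets tested at like mean signal. These therefore rest on more degrees of freedom than the residual ones given below.

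Transcripts of the FKBP genes, Rcan1 and Nfatc4 were detected well above the low-signal filter in DRG. The member probe sets tested lay at percentiles 61.3 to 98.4 of all probe sets, and no member passed the test in any pair of groups. With limma (group and week as factors, 4 residual degrees of freedom, Benjamini-Hochberg over 9520 probe sets, threshold 0.05), 11 of the 12 member probe sets passed the low-signal filter and were tested. In STZ FK1706 against STZ vehicle 0 of these 11 passed, where 0% of all probe sets did, and 0 had an unadjusted p under 0.05, where 3.37% of all did. In STZ vehicle against normal 0 of 11 passed (0.063% of all), and 1, Rcan1, had an unadjusted p under 0.05 (8.7% of all). That count was 5 on the deposited scale, 4 without the normal pool of week 1 or without week 1, and 0 without the STZ FK1706 pool of week 3, without the STZ vehicle pool of week 2 or with no trend in the prior. In STZ FK1706 against normal 0 of 11 passed (0% of all), and 3, those of Rcan1, Fkbp4 and Nfatc4, had an unadjusted p under 0.05 (8.16% of all). That count was 6 on the deposited scale and 1 without the STZ FK1706 pool of week 2, the STZ FK1706 pool of week 3, the normal pool of week 3 or week 3. In STZ FK1706 against STZ vehicle it was at most 2, without the normal pool of week 1 or without week 2. The median difference of the member probe sets tested was 0.06 in STZ FK1706 against STZ vehicle, -0.13 in STZ vehicle against normal and -0.03 in STZ FK1706 against normal, beside 0.00 for all probe sets in each.

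Most member differences were small, as were most on the array, though the median absolute difference was larger for the member probe sets tested. For these it was 0.115 in STZ FK1706 against STZ vehicle, 0.127 in STZ vehicle against normal and 0.107 in STZ FK1706 against normal. For all probe sets tested it was 0.0745, 0.0973 and 0.0962 in the same order. An absolute difference under 0.3 was found for 10 of 11 member probe sets in STZ FK1706 against STZ vehicle (96% of all), for 10 of 11 in STZ vehicle against normal (93.1% of all) and for 8 of 11 in STZ FK1706 against normal (92.9% of all). The sign was the same in each week for 6 of 11 in STZ FK1706 against STZ vehicle, where 23.8% of all probe sets had that. Of these, 4 were higher and 2 lower, and 2 were Fkbp1a probe sets (1398829_at and 1398828_at) that are not independent readings. The sign was the same for 4 of 11 in STZ vehicle against normal (30.6% of all) and for 4 of 11 in STZ FK1706 against normal (27.8% of all). Groups without overlap were found for 2 of 11 in STZ FK1706 against STZ vehicle (6.82% of all), 1 of 11 in STZ vehicle against normal (12.8% of all) and 0 of 11 in STZ FK1706 against normal (11.9% of all).

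**Figure D1:**
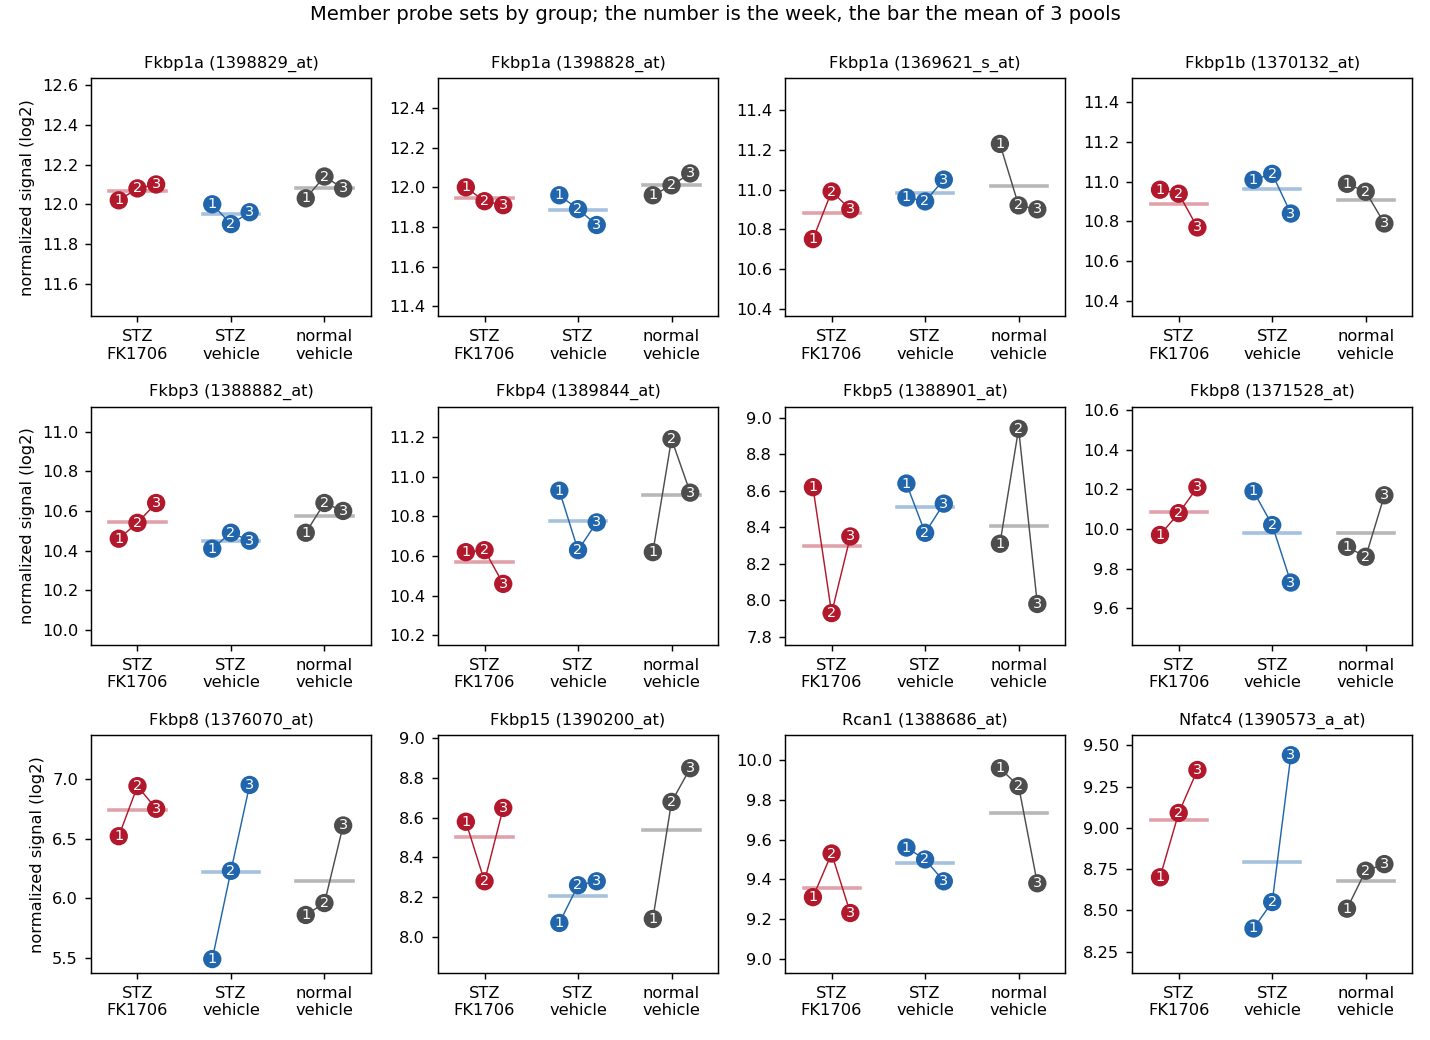
Normalized log2 signal (vertical axis) of the 12 member probe sets in STZ FK1706, STZ vehicle and normal vehicle pools (horizontal axis). Each numbered point is the pool of that week and each bar the mean of 3 pools. The 3 groups overlap in most panels, Rcan1 is highest in the normal pools of weeks 1 and 2, and Nfatc4 is higher at week 3 than at week 1 in each group.

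Fkbp1a (chr3:160500748-160520492, GRCr8) encodes FKBP12, the main receptor of FK506, which also sits on calcium release channels and on type I TGF-beta receptors. Its 2 brightest probe sets, 1398829_at and 1398828_at, lie at percentiles 98.4 and 98.2 of all probe sets by mean signal and are annotated to the same transcript accession, so they are not independent readings. Probe set 1398829_at was at 12.02, 12.08 and 12.10 in STZ FK1706, 12.00, 11.90 and 11.96 in STZ vehicle and 12.03, 12.14 and 12.08 in normal pools. All STZ FK1706 and all normal pools thus lay above every STZ vehicle pool, by narrow margins. It averaged 12.07 ± 0.0409 in STZ FK1706, 11.95 ± 0.0518 in STZ vehicle and 12.08 ± 0.0587 in normal pools (SD, n = 3 each, 1 pool per week). The difference of STZ FK1706 from STZ vehicle was 0.11 (SE 0.0611, limma adjusted p = 0.999), higher in 3 of 3 weeks, with a 95% interval, not adjusted for the number of probe sets, from 0.986-fold to 1.19-fold. The difference of STZ vehicle from normal was -0.13 (SE 0.0611, limma adjusted p = 0.579), lower in 3 of 3 weeks.

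Probe set 1398828_at of Fkbp1a gave 12.00, 11.93 and 11.91 in STZ FK1706, 11.96, 11.89 and 11.81 in STZ vehicle and 11.96, 12.01 and 12.07 in normal pools. Its difference was 0.06 (SE 0.0641) for STZ FK1706 against STZ vehicle, and 0.00 on the deposited scale, where its sign turned. It was -0.13 (SE 0.0641) for STZ vehicle against normal, and neither passed. The third Fkbp1a probe set, 1369621_s_at, whose suffix marks probes shared with other transcripts, went the other way in STZ FK1706 against STZ vehicle, with -0.10 (SE 0.102, limma adjusted p = 0.999). It read 10.75, 10.99 and 10.90 in STZ FK1706, 10.96, 10.94 and 11.05 in STZ vehicle and 11.23, 10.92 and 10.90 in normal pools. Its week 1 pools spread most, with the normal pool highest and the STZ FK1706 pool lowest of all 9, and without the STZ FK1706 pool of week 1 the difference from STZ vehicle was 0.02. The 3 probe sets of Fkbp1a therefore gave no common sign in STZ FK1706 against STZ vehicle, and the 95% interval of 1369621_s_at ran from 0.8-fold to 1.09-fold.

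Fkbp1b (chr6:33551583-33570055) encodes FKBP12.6, the close relative of FKBP12 that binds ryanodine receptors, and was among the least variable members. It was at 10.96, 10.94 and 10.77 in STZ FK1706, 11.01, 11.04 and 10.84 in STZ vehicle and 10.99, 10.95 and 10.79 in normal pools. The week 3 pool was the lowest of each group. The difference of STZ FK1706 from STZ vehicle was -0.07 (SE 0.0645, limma adjusted p = 0.999), lower in 3 of 3 weeks, with a 95% interval from 0.862-fold to 1.05-fold. STZ vehicle differed from normal by 0.05 (SE 0.0645), and by -0.06 on the deposited scale.

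Fkbp3 (chr6:88850137-88862542), which encodes the nuclear FKBP25, had the smallest range over the 9 arrays of any member, 1.17-fold, where the median over all probe sets tested was 1.38-fold. Of the 11 member probe sets tested, 4 had a range below that median. Its values were 10.46, 10.54 and 10.64 in STZ FK1706, 10.41, 10.49 and 10.45 in STZ vehicle and 10.49, 10.64 and 10.60 in normal pools. The STZ vehicle value was the lowest of the 3 groups in each week. STZ FK1706 differed from STZ vehicle by 0.09 (SE 0.0722, limma adjusted p = 0.999) and STZ vehicle from normal by -0.13 (SE 0.0722, limma adjusted p = 0.628). Both comparisons use the same STZ vehicle arrays, so a low value there enters them with opposite signs.

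Fkbp4 (chr4:163389464-163397918) encodes FKBP52, an HSP90 co-chaperone that assists steroid receptors and has been linked to neurite growth under immunophilin ligands. Its signal was 10.62, 10.63 and 10.46 in STZ FK1706, 10.93, 10.63 and 10.77 in STZ vehicle and 10.62, 11.19 and 10.92 in normal pools. The normal pools of weeks 2 and 3 stood above all STZ FK1706 pools, while in week 1 the 2 groups had the same value, so they overlap. Means were 10.57 ± 0.0926 in STZ FK1706, 10.78 ± 0.153 in STZ vehicle and 10.91 ± 0.287 in normal pools (SD, n = 3 each). The value of STZ FK1706 minus STZ vehicle was -0.21 (SE 0.131, limma adjusted p = 0.999), with -0.32, 0.00 and -0.30 in weeks 1, 2 and 3, and it was -0.07 without the STZ vehicle pool of week 1 and -0.37 without that of week 2. STZ FK1706 differed from normal by -0.34 (SE 0.131, limma unadjusted p = 0.026, adjusted p = 0.551), which is 1.26-fold lower, with a 95% interval from 0.648-fold to 0.967-fold, and the difference was -0.18 without the normal pool of week 2 and -0.53 without that of week 1. STZ vehicle differed from normal by -0.13 (SE 0.131, limma adjusted p = 0.8), and by 0.03 without the normal or the STZ vehicle pool of week 2.

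Fkbp4 is also known as a heat-inducible gene, and its promoter is shown for that reason. RefSeq's table of the GRCr8 rat assembly held a promoter (250 bases before to 50 after the gene's start) for 7 of the 9 members. The promoter of Fkbp4 lies at chr4:163397869-163398168 on the minus strand, and the capitals mark the 1 match to GAANNTTC, a pair of inverted heat shock units, which reads the same on both strands and occurs in 8.6% of the 33469 promoters of this length.
Fkbp4: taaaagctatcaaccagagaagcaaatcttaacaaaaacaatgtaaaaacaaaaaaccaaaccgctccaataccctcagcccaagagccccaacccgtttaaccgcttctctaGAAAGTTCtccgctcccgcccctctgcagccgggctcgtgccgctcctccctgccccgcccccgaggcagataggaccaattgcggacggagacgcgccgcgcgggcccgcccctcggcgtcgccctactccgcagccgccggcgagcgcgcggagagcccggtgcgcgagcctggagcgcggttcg
The other 6 member promoters held no match to these letters.

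Fkbp5 (chr20:6458931-6577227) encodes FKBP51, the HSP90 co-chaperone that lowers the hormone affinity of the glucocorticoid receptor and is itself induced by glucocorticoids. It was among the most variable members, with a 2.01-fold range over the arrays. It was at 8.62, 7.93 and 8.35 in STZ FK1706, 8.64, 8.37 and 8.53 in STZ vehicle and 8.31, 8.94 and 7.98 in normal pools. The normal pools alone spanned nearly the whole range, with the highest value of the 9 at week 2 and the next to lowest at week 3. STZ FK1706 differed from STZ vehicle by -0.21 (SE 0.226, limma adjusted p = 0.999), lower in 3 of 3 weeks but only by -0.03 in week 1, and the sign turned to 0.06 without the STZ FK1706 pool of week 2. The difference of STZ vehicle from normal was 0.34, -0.57 and 0.55 in weeks 1, 2 and 3, or 0.10 over the weeks (SE 0.226, limma adjusted p = 0.919), and -0.01 on the deposited scale. The 95% interval of STZ FK1706 against STZ vehicle ran from 0.61-fold to 1.22-fold, the widest of the 11 in that comparison.

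Fkbp8 (chr16:18929581-18936621) encodes FKBP38, a membrane-anchored FKBP of the mitochondrial outer membrane that binds BCL2. Its brighter probe set, 1371528_at, was at 9.97, 10.08 and 10.21 in STZ FK1706, 10.19, 10.02 and 9.73 in STZ vehicle and 9.91, 9.86 and 10.17 in normal pools. The STZ vehicle pool of week 3 was the lowest of the 9 and that of week 1 the second highest. The value of STZ FK1706 minus STZ vehicle was -0.22, 0.06 and 0.48 in weeks 1, 2 and 3, or 0.11 over the weeks (SE 0.131, limma adjusted p = 0.999), and it was -0.10 without the STZ vehicle pool of week 3. With week kept as a factor and a difference in linear week slope between groups added (2 residual degrees of freedom), the slope of STZ FK1706 minus STZ vehicle was 0.35 per week (SE 0.116, limma unadjusted p = 0.0129, adjusted p = 0.999). No member's slope passed (0% of all probe sets did), and Fkbp8 was the 1 member probe set of 11 with an unadjusted p under 0.05, where 3.53% of all had one. STZ vehicle minus normal had a slope of -0.36 per week (SE 0.116, limma unadjusted p = 0.0119, adjusted p = 0.999), and it uses the same STZ vehicle arrays. There 2 of 11, those of Fkbp8 and Nfatc4, had an unadjusted p under 0.05, where 4.14% of all did, and 0 passed (0% of all). Over the weeks STZ vehicle differed from normal by 0.00 for Fkbp8 (SE 0.131), and by -0.10 on the deposited scale. The dimmer probe set, 1376070_at, lay at percentile 22.3, under the filter, and was not tested. It read 6.52, 6.94 and 6.75 in STZ FK1706, 5.49, 6.23 and 6.95 in STZ vehicle and 5.86, 5.96 and 6.61 in normal pools. In the STZ vehicle pools it was highest at week 3, where the brighter probe set was lowest, so the 2 readings of Fkbp8 differ in pattern.

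Fkbp15 (chr5:80766356-80830622) encodes an FKBP-related protein of early endosomes that binds actin, described in mouse also in growth cones. It was at 8.58, 8.28 and 8.65 in STZ FK1706, 8.07, 8.26 and 8.28 in STZ vehicle and 8.09, 8.68 and 8.85 in normal pools. Every STZ FK1706 pool was above every STZ vehicle pool, though the lowest STZ FK1706 value and the highest STZ vehicle value were equal to 2 decimals, and the normal pools spanned both groups. Fkbp15 and Fkbp1a (1398829_at) were the 2 member probe sets whose STZ FK1706 and STZ vehicle groups did not overlap. STZ FK1706 differed from STZ vehicle by 0.30 (SE 0.159, limma unadjusted p = 0.0848, adjusted p = 0.999), or 1.23-fold, with a 95% interval from 0.967-fold to 1.57-fold. It was 0.12 without the STZ FK1706 pool of week 1, 0.19 without week 1 and 0.46 without the STZ FK1706 pool of week 2. STZ vehicle differed from normal by -0.02, -0.42 and -0.57 in weeks 1, 2 and 3, or -0.34 over the weeks (SE 0.159, limma adjusted p = 0.586). STZ FK1706 and normal differed by -0.03 (SE 0.159), with 0.50 in week 1 and -0.40 and -0.20 in weeks 2 and 3.

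**Figure D2:**
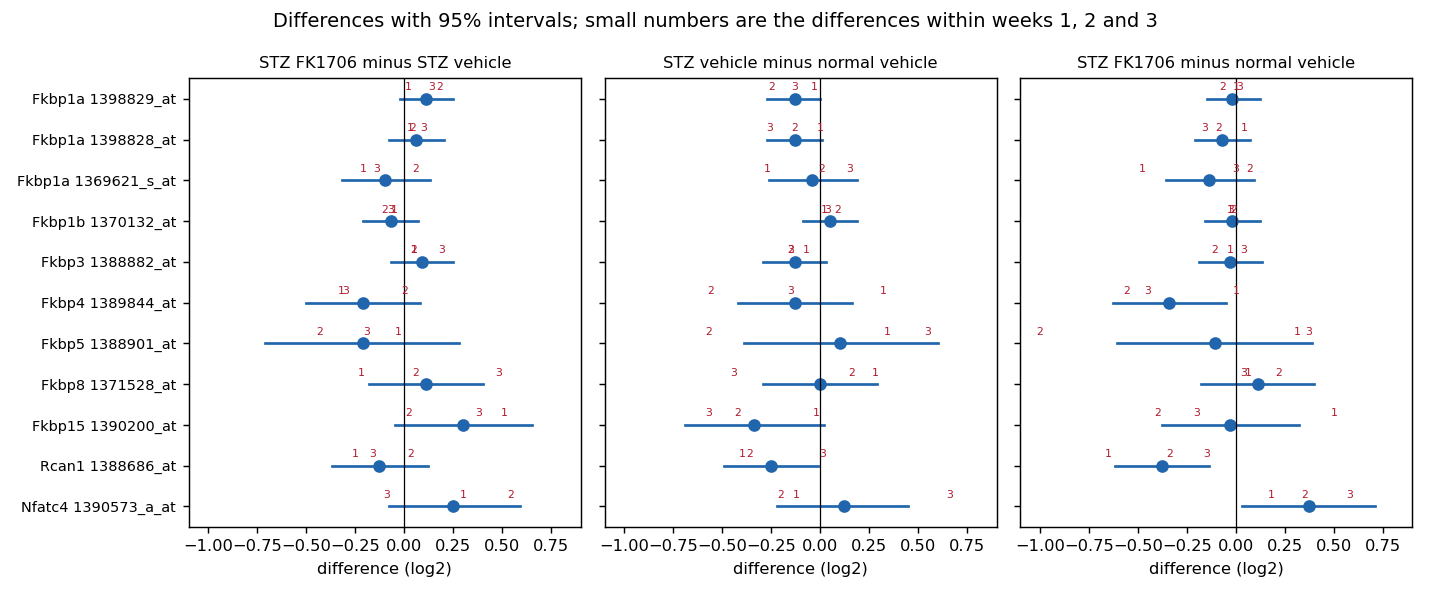
Differences in log2 signal (horizontal axis) of the 11 member probe sets tested, for the 3 pairs of groups. Points are estimates over the weeks, bars are 95% intervals from limma without adjustment for the number of probe sets, and small numbers are the differences within weeks 1, 2 and 3. All 11 intervals of STZ FK1706 minus STZ vehicle hold 0, and the intervals of Rcan1, Fkbp4 and Nfatc4 in STZ FK1706 minus normal do not.

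Rcan1 and Nfatc4 stand for the calcineurin pathway rather than for the FKBPs. Rcan1 (chr11:45108123-45188065) encodes a protein that binds and inhibits calcineurin and is itself transcribed from an NFAT-driven internal start, which makes its transcript a common readout of calcineurin activity. The RefSeq start of Rcan1 in the promoter table lies 69.8 kb inside the gene's annotated 5' end, and whether it is the NFAT-driven start was not looked up, nor was which Rcan1 transcript the probe set reads. The 300 bases at chr11:45118187-45118486, minus strand, are shown because Rcan1 is the member read as a target of calcineurin, with both matches to the NFAT core GGAAA (or TTTCC, its reverse complement) in capitals.
Rcan1: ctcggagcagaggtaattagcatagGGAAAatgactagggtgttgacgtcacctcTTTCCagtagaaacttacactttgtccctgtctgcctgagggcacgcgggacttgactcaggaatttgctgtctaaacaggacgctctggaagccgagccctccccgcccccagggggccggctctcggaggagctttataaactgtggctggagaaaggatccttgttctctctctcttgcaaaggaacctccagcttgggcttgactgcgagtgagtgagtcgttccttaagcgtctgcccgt
At least 2 matches occur in 28.5% of the 33469 promoters and at least 1 in 62.7%, and Fkbp8 and Fkbp15 also had 2, so the letters alone do not set Rcan1 apart.

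Rcan1 was at 9.31, 9.53 and 9.23 in STZ FK1706, 9.56, 9.50 and 9.39 in STZ vehicle and 9.96, 9.87 and 9.38 in normal pools. The normal pools of weeks 1 and 2 stood above all 6 STZ pools, and at week 3 the normal and STZ vehicle pools were nearly equal. Deposited signals were 664.2, 676 and 479.9 in STZ FK1706, 891.6, 683.4 and 546.3 in STZ vehicle and 1215.7, 1033.2 and 569.3 in normal pools. Group means were 9.36 ± 0.157 in STZ FK1706, 9.48 ± 0.0857 in STZ vehicle and 9.74 ± 0.313 in normal pools (SD, n = 3 each). Relative to normal, STZ FK1706 was at -0.65, -0.34 and -0.15 in weeks 1, 2 and 3, or -0.38 over the weeks (SE 0.11, limma unadjusted p = 0.00569, adjusted p = 0.397), 1.3-fold lower with a 95% interval from 0.65-fold to 0.91-fold. This was the smallest p of any member in a comparison of groups, and it did not pass. On the deposited scale the difference was -0.56 (limma adjusted p = 0.0529), beside a median of -0.17 for all probe sets.

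Neither the difference of STZ FK1706 from STZ vehicle nor that of STZ vehicle from normal passed for Rcan1. STZ vehicle differed from normal by -0.40, -0.36 and 0.01 in weeks 1, 2 and 3, or -0.25 over the weeks (SE 0.11, limma unadjusted p = 0.0443, adjusted p = 0.557). The value of STZ FK1706 minus STZ vehicle was -0.25, 0.03 and -0.16, or -0.13 over the weeks (SE 0.11, limma adjusted p = 0.999), with a 95% interval from 0.773-fold to 1.08-fold, and it was -0.03 without the STZ FK1706 pool of week 1 and -0.05 without the STZ vehicle pool of week 3. The summed signal of fibroblast markers was highest in the normal pool of each week, and that of skeletal muscle markers only in that of week 2. The collagen genes Col1a1, Col1a2 and Col3a1 were each highest in the normal pool in every week. Fbln1 was lowest in the normal pool in every week (7.27, 7.48 and 7.38), and Dcn and Lum were highest there only in week 1. The summed signal of the 6 fibroblast markers, all above the filter, was 26451, 22125 and 21756 in STZ FK1706, 24623, 19614 and 21658 in STZ vehicle and 33160, 24318 and 28116 in normal pools. That of the skeletal muscle markers, 11 of 12 on the array, 8 above the filter and none at 0, was 2690, 4187 and 2477 in STZ FK1706, 3579, 2487 and 4422 in STZ vehicle and 3127, 6798 and 4183 in normal pools. The 6 Schwann cell markers on the array, of 8 listed, were all above the filter. They summed to 29344, 28191 and 28343 in STZ FK1706, 31041, 27122 and 29876 in STZ vehicle and 31352, 30078 and 31267 in normal pools. STZ FK1706 and normal pools did not overlap in that sum or in its brightest genes Pmp22, Mbp and Prx, where 11.9% of all probe sets had no overlap. They overlapped in Sox10, Mag and Egr2, and Mag was lowest of the 9 pools in the normal pool of week 2 (7.60). The normal pool of week 2, highest in the muscle sum, was also the highest pool for Fkbp4 (11.19), Fkbp5 (8.94) and Fkbp1a (1398829_at, 12.14). Rcan1, Fkbp1b, Fkbp8 (1371528_at), Fkbp15 and Nfatc4 had their highest value in other pools. So did the other Fkbp1a probe sets, 1398828_at in the normal pool of week 3 (12.07) and 1369621_s_at in that of week 1 (11.23). Fkbp3 was at 10.64, its highest value to 2 decimals, in both the normal pool of week 2 and the STZ FK1706 pool of week 3. The part of fibroblasts, skeletal muscle and Schwann cells in the values of Rcan1 and the other members was not tested.

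Nfatc4 (chr15:33256912-33284522) encodes a calcineurin-regulated NFAT protein that is expressed in neurons. The level of its transcript does not show how much of that protein is dephosphorylated. Nfatc4 is thus a part of the pathway rather than a measure of calcineurin activity. Its signal was 8.70, 9.09 and 9.35 in STZ FK1706, 8.39, 8.55 and 9.44 in STZ vehicle and 8.51, 8.74 and 8.78 in normal pools. The highest value was that of the STZ vehicle pool of week 3, above the STZ FK1706 pool of that week, while in weeks 1 and 2 the STZ FK1706 pool was the highest of its week. Relative to normal, STZ FK1706 was at 0.18, 0.35 and 0.58 in weeks 1, 2 and 3, or 0.37 over the weeks (SE 0.153, limma unadjusted p = 0.035, adjusted p = 0.59), 1.29-fold higher with a 95% interval from 1.02-fold to 1.63-fold, and 0.18 over the weeks without the normal pool of week 3. STZ FK1706 differed from STZ vehicle by 0.30, 0.54 and -0.09, or 0.25 over the weeks (SE 0.153, limma adjusted p = 0.999), and 0.10 without the STZ vehicle pool of week 2 and 0.48 without that of week 3. STZ vehicle differed from normal by 0.12 (SE 0.153), and by -0.11 without the STZ vehicle pool of week 3, by -0.07 without the normal pool of week 3 and by -0.01 on the deposited scale.

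**Figure D3:**
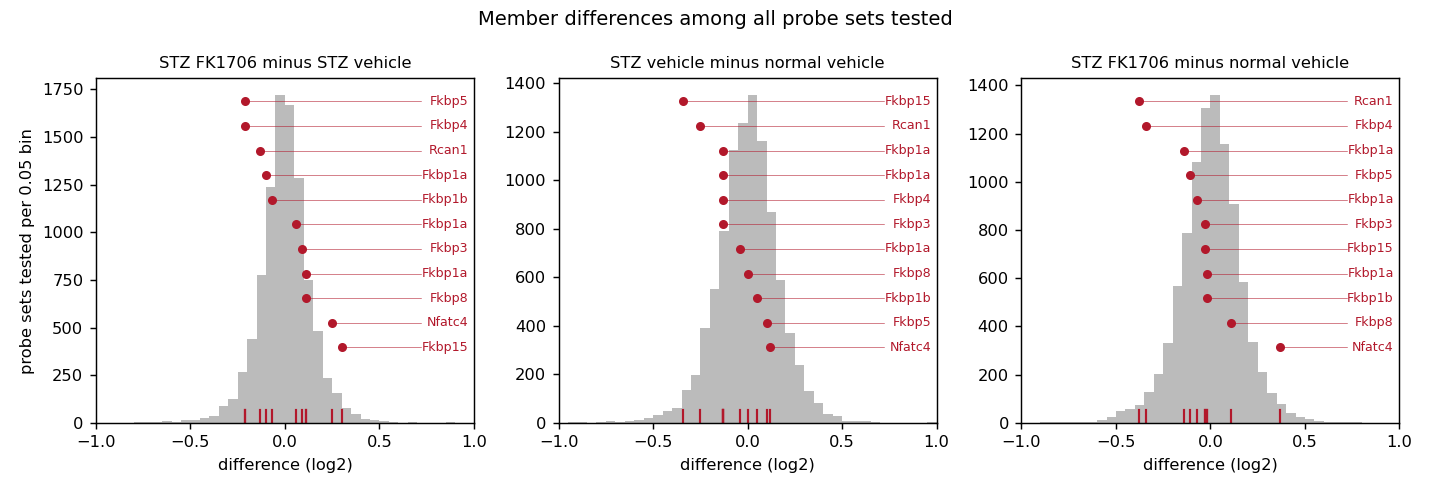
Differences in log2 signal (horizontal axis, shown from -1 to 1) of all 9520 probe sets tested, as grey bars counting probe sets per bin of width 0.05, for the 3 pairs of groups. Red points and ticks mark the 11 member probe sets, with their symbols listed from the lowest to the highest difference. Rcan1 and Fkbp4 lie at the low end of the members in STZ FK1706 minus normal, and Nfatc4 at the high end.

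Over the weeks, with group as a factor, 0 of the 11 member probe sets passed limma's moderated F test, where 0.0525% of all probe sets did, and 3 had an unadjusted p under 0.05, where 10.7% of all did. Nfatc4 had the smallest p (limma unadjusted p = 0.00446, adjusted p = 0.255). Averaged over the groups, its week 3 level was 0.66 above week 1 (SE 0.153, limma adjusted p = 0.142), or 1.58-fold, with a 95% interval of 0.32 to 0.99 on the log2 scale. The sizes differed by group, with 9.44 at week 3 and 8.39 at week 1 in STZ vehicle, and 8.78 and 8.51 in normal pools. Between week 3 and week 1, 3 of 11 member probe sets, those of Nfatc4, Rcan1 and Fkbp1b, had an unadjusted p under 0.05 (12.8% of all) and 0 passed (0.021% of all). The same 3 had one between week 3 and week 2 (10.2% of all), and 0 passed (0.0105% of all). Rcan1 was -0.30 at week 3 against week 2 (SE 0.11, limma adjusted p = 0.416) and Fkbp1b -0.18 (SE 0.0645, limma adjusted p = 0.412). The trimmed mean signal was lower at each later week in each group, with 465, 407 and 360 in STZ FK1706, 515, 422 and 365 in STZ vehicle and 532, 483 and 385 in normal arrays. On the deposited scale 8 of 11 member probe sets passed the F test among 5936 of all 9520, so the week values depend on the normalization.

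The rest of the pathway was described by lists of other FKBPs, calcineurin, NFAT, cyclophilins, the HSP90 complex and glucocorticoid-induced genes, each gene by its probe set with the highest mean. In none of the 3 pairs of groups did a tested gene of these 8 lists pass limma over all probe sets. Of 10 other FKBPs listed 4 were tested, with 1 higher and 3 lower in STZ FK1706 against STZ vehicle and a median of -0.09. Fkbp2, an FKBP of the endoplasmic reticulum, had -0.17 (SE 0.0925) and Fkbp14, an isomerase that assists collagen folding, -0.22 (SE 0.141) in that comparison. In STZ vehicle against normal Fkbp14 had 0.28 (SE 0.141) and Fkbp10, a collagen chaperone, -0.16 (SE 0.133).

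Calcineurin is built of a catalytic and a regulatory subunit and is switched on by calmodulin. Of 14 genes for its subunits and regulators 6 were tested, 3 higher and 3 lower in STZ FK1706 against STZ vehicle, from -0.07 (Cabin1, a calcineurin-binding inhibitor, SE 0.102) to 0.13 (Ppp3r1, the regulatory subunit, SE 0.133). In STZ vehicle against normal Ppp3r1 had -0.10 (SE 0.133) and the calmodulin gene Calm2 0.10 (SE 0.0589). Of 9 NFAT family and NFAT kinase genes 5 were tested, 5 of them higher in STZ FK1706 against STZ vehicle with a median of 0.07, among them Dyrk1a, a kinase that promotes NFAT export from the nucleus, at 0.15 (SE 0.127), and Nfat5, the calcineurin-independent NFAT of osmotic stress, at 0.12 (SE 0.0862). In STZ vehicle against normal 1 was higher and 4 were lower, with Dyrk1a at -0.26 (SE 0.127) and Nfat5 at -0.08 (SE 0.0862), and the 2 comparisons share the STZ vehicle arrays.

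Most of the listed targets of calcineurin and NFAT, among them cytokine genes known from lymphocytes, could not be tested. Of 12 listed 10 were on the array and 8 lay under the filter, at percentile 40. The cytokine genes Ifng, Il2, Tnf, Csf2 and Il4 were at percentiles 3.32, 4.81, 8.61, 20.2 and 25.2, the cyclooxygenase gene Ptgs2 at 7.23, the T cell inhibitory receptor gene Ctla4 at 14.5 and the transcription factor gene Egr3 at 32.8. Of 8 T cell markers 5 also lay under the filter, and the sum of all 8 was 794 to 1052 in STZ FK1706, 852 to 931 in STZ vehicle and 723 to 854 in normal pools. The 2 targets tested were Itpr1, a calcium release channel, and Egr2, a transcription factor of myelinating Schwann cells, at -0.03 (SE 0.177) and -0.03 (SE 0.109) in STZ FK1706 against STZ vehicle and -0.05 (SE 0.177) and -0.05 (SE 0.109) in STZ vehicle against normal.

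Partners of FKBP51 and FKBP52 include steroid receptors, HSP90 and its other co-chaperones. Of 18 steroid receptor and HSP90 complex genes 14 were tested, 5 higher and 9 lower in STZ FK1706 against STZ vehicle (median -0.03) and 10 higher and 4 lower in STZ vehicle against normal (median 0.04). Nr3c2, the mineralocorticoid receptor gene, was at 8.03, 7.92 and 8.05 in STZ FK1706, 8.10, 8.30 and 8.42 in STZ vehicle and 8.02, 7.73 and 7.78 in normal pools. All STZ vehicle pools were above all pools of the other groups for Nr3c2, which was named for the largest absolute t of its list in both comparisons. Among all probe sets, groups did not overlap for 12.8% in STZ vehicle against normal and for 6.82% in STZ FK1706 against STZ vehicle. Nr3c2 differed by 0.43 between STZ vehicle and normal (SE 0.136, limma unadjusted p = 0.00931, adjusted p = 0.45) and by -0.27 between STZ FK1706 and STZ vehicle (SE 0.136, limma adjusted p = 0.999). Hsp90ab1, the constitutive HSP90 gene, had -0.09 (SE 0.0559) in STZ FK1706 against STZ vehicle and 0.13 (SE 0.0559) in STZ vehicle against normal. For both genes the comparisons share the STZ vehicle arrays, so a high value there enters them with opposite signs.

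Glucocorticoid-induced genes, a list chosen because Fkbp5 belongs to that response, had 12 of 14 tested, 9 higher and 3 lower in STZ FK1706 against STZ vehicle (median 0.06) and 6 higher and 6 lower in STZ vehicle against normal (median -0.01). Ddit4, an inhibitor of mTORC1, was at 10.07, 10.34 and 10.15 in STZ FK1706, 10.04, 10.06 and 9.85 in STZ vehicle and 9.82, 9.48 and 9.88 in normal pools. Its difference was 0.20 between STZ FK1706 and STZ vehicle (SE 0.123), 0.26 between STZ vehicle and normal (SE 0.123) and 0.46 between STZ FK1706 and normal (SE 0.123, limma unadjusted p = 0.0035, adjusted p = 0.347). Every STZ FK1706 pool was thus above every normal pool for Ddit4, where 11.9% of all probe sets had no overlap in either direction. Tsc22d3, the glucocorticoid-induced leucine zipper gene, had 0.12 (SE 0.0806) in STZ FK1706 against STZ vehicle, and Cebpd -0.31 (SE 0.143) in STZ vehicle against normal.

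Of 10 channels and receptors that FKBP12 binds or acts on, 8 were tested, 5 higher and 3 lower in STZ FK1706 against STZ vehicle (median 0.07). Itpr2, an inositol trisphosphate receptor gene, was at 7.94, 8.23 and 8.61 in STZ FK1706, 7.80, 7.79 and 8.36 in STZ vehicle and 7.59, 7.67 and 7.87 in normal pools. It differed by 0.27 (SE 0.13) in STZ FK1706 against STZ vehicle and by 0.27 (SE 0.13) in STZ vehicle against normal. In STZ FK1706 against normal the difference was 0.55 (SE 0.13, limma unadjusted p = 0.00155, adjusted p = 0.305). Each kept its direction in every week, as did 23.8%, 30.6% and 27.8% of all probe sets in these comparisons. Tgfbr1, the type I TGF-beta receptor gene, had -0.17 (SE 0.121) in STZ FK1706 against STZ vehicle, and Itpr3 -0.19 (SE 0.0995) in STZ vehicle against normal. Of 15 cyclophilins, the receptors of cyclosporin, 11 were tested, 3 higher and 8 lower in STZ FK1706 against STZ vehicle (median -0.08). Ranbp2, a nuclear pore protein with a cyclophilin domain, had -0.41 (SE 0.201) and Ppie, a cyclophilin of the spliceosome, -0.30 (SE 0.168) there, beside 0.47 (SE 0.201) and 0.41 (SE 0.168) in STZ vehicle against normal. These comparisons too share the STZ vehicle arrays.

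**Figure D4:**
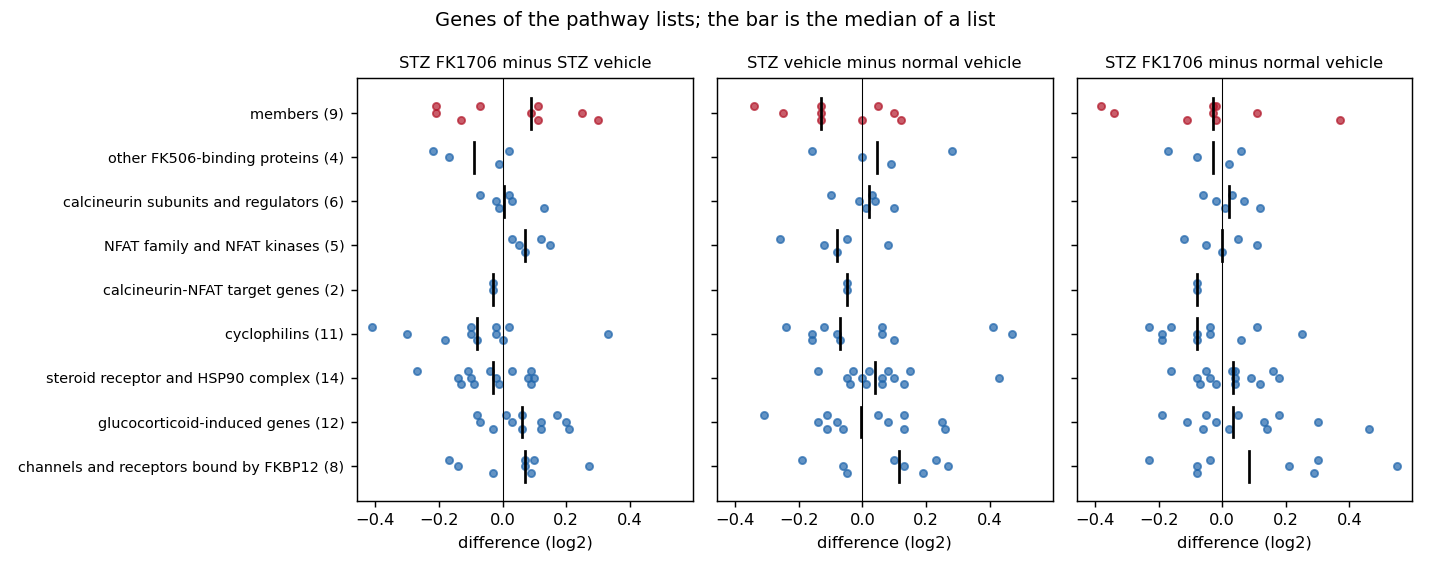
Differences in log2 signal (horizontal axis) of the genes tested in each list, for the 3 pairs of groups. Each point is a gene, the number of genes tested stands beside each list's name, black bars are medians, and the members are in red. List medians lie between -0.13 and 0.12, and the points farthest from 0 are Ranbp2 and Itpr2.

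The genes most like each member over the 9 arrays were found by Pearson correlation of normalized log2 values among 6989 genes, as a description. With so few arrays and so many genes, high values arise readily, and the arrays share groups and weeks. The closest to Fkbp1a (1398829_at) was Meaf6 (0.962), to Fkbp1b Rhot2 (0.961), to Fkbp3 Vasp (0.973), to Fkbp4 Hacd2 (0.959) and to Fkbp5 Ccdc50 (0.91). Prepl (0.916) was closest to Fkbp8 (1371528_at), Foxd2 and Mcoln1 (0.923 each) to Fkbp15, Lman2l (0.921) to Rcan1 and Stat2 (0.957) to Nfatc4. The second closest were Lzts2 (0.905), Aars1 (0.938), Cdkn2aipnl (0.936), Ttc17 (0.957) and Coq6 (0.902) for Fkbp1a, Fkbp1b, Fkbp3, Fkbp4 and Fkbp5, and Orc4 (0.91), Vps50 (0.911) and Ap1g2 (0.955) for Fkbp8, Rcan1 and Nfatc4. None of these genes is a member or belongs to the pathway lists.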

How the data were processed

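Affymetrix arrays, 1 per pool of 5 rats, gave the deposited values, a linear intensity for each probe set, which the authors made with MAS5, per the submitters' processing notes, which name no version. They were not on a common level. Gene symbols came from the platform annotation: of 15866 probe sets other than the 57 controls, 12783 had 1 symbol, 312 several and 2771 none. To each signal 18.7 was added, which is its 10th percentile, log2 values were quantile-normalized, and the 9520 probe sets whose mean reached the 40th percentile were tested with limma 3.58.1 in R 4.3.3 (lmFit, eBayes with a trend, two-sided).

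Week was a factor in the design because each group was sampled once in each week. After removal of group means, pools of the same week correlated across probe sets with r from -0.000529 to 0.32 over 9 pairs. Nothing says that groups shared litters or processing days.

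Named genes are all members, of the genes tested in each list the 2 with the largest absolute moderated t in STZ FK1706 against STZ vehicle and in STZ vehicle against normal, and the 2 genes most like each member. The 8 calcineurin-NFAT targets under the filter were named after their values were seen. Among list genes, the difference of STZ FK1706 from normal is given only for Ddit4 and Itpr2. They alone of the genes tested in the 8 lists had a limma unadjusted p under 0.05 there (8.16% of all probe sets). These differences were thus picked by their values. Members and lists were chosen with earlier results of these data known. Alternatives varied the scale, offset, filter, unit of test, prior, week term and arrays used.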

Additional observations from a re-analysis of the deposited data

How the results depend on the processing

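No member passed in a comparison of groups under any of 21 alternatives, and the smallest adjusted p of a member was 0.925 in STZ FK1706 against STZ vehicle, 0.206 in STZ vehicle against normal and 0.0529 in STZ FK1706 against normal. Of 687 member differences recomputed, 643 kept their sign and 44 turned. On the deposited scale the sign turned for Fkbp1a (1398828_at, 0.00 in STZ FK1706 against STZ vehicle), for Fkbp1b (-0.06), Fkbp8 (-0.10), Fkbp5 (-0.01) and Nfatc4 (-0.01) in STZ vehicle against normal, and for Fkbp8 in STZ FK1706 against normal (-0.08). An offset of 1 signal unit gave Fkbp8 0.00 in STZ vehicle against normal. On that deposited scale 5 of 11 member probe sets were higher in STZ FK1706 against STZ vehicle, 0 in STZ vehicle against normal and 1 in STZ FK1706 against normal, beside 6, 4 and 2 after normalization, with the array medians shifted as given above. Of all probe sets tested, 27.6%, 24.2% and 12.5% were higher in these comparisons on the deposited scale. After normalization these shares were 49.9%, 51.3% and 51.2%.

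Ranges over leaving out 1 pool or 1 week follow where the sign turned. STZ FK1706 against STZ vehicle ranged from -0.19 to 0.02 for Fkbp1a (1369621_s_at), -0.37 to 0.06 for Fkbp5 and -0.10 to 0.27 for Fkbp8. STZ vehicle against normal ranged from -0.13 to 0.11 for Fkbp1a (1369621_s_at), -0.35 to 0.08 for Fkbp4, -0.12 to 0.50 for Fkbp5, -0.15 to 0.23 for Fkbp8 and -0.16 to 0.27 for Nfatc4. STZ FK1706 against normal ranged from -0.29 to 0.15 for Fkbp15, -0.24 to 0.04 and -0.05 to 0.02 for Fkbp1a (1369621_s_at and 1398829_at), -0.07 to 0.00 for Fkbp3 and -0.35 to 0.34 for Fkbp5. With the sign kept, STZ FK1706 against STZ vehicle ranged from 0.12 to 0.46 for Fkbp15, 0.10 to 0.48 for Nfatc4, -0.37 to -0.07 for Fkbp4 and -0.21 to -0.03 for Rcan1. STZ vehicle against normal ranged from -0.55 to -0.22 for Fkbp15 and -0.39 to -0.14 for Rcan1, and STZ FK1706 against normal from -0.53 to -0.18 for Fkbp4, 0.18 to 0.48 for Nfatc4 and -0.50 to -0.24 for Rcan1.

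Over all probe sets, limma called 6 in STZ vehicle against normal (1 higher, 5 lower), 12 on the deposited scale (1 higher, 11 lower), 0 with no filter (1175 at an unadjusted p under 0.05), 0 with no trend in the prior (781 unadjusted), 1 with no replicate block, that is with week left out, and 0 to 11 without 1 pool or week. It called 0 in STZ FK1706 against normal (777 unadjusted), 89 on the deposited scale (1 higher, 88 lower), 2 with the filter at the 60th percentile, 1 with 1 probe set per gene and 0 to 2 without 1 pool or week. Over the weeks it called 5, 5936 on the deposited scale with 8 of 11 member probe sets, 0 with no filter (1471 unadjusted), 0 with no trend (1054 unadjusted) and 0 to 18 without 1 pool or week. The slope over weeks gave 1 call on the deposited scale in each of STZ FK1706 against STZ vehicle and STZ vehicle against normal, and 1 in the second with the filter at the 60th percentile. Leaving the week term out changed no member's call, and the causes were not tested.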
